A study of Mus musculus with 15 samples.

Results

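The ribosome-bound mRNA profile of Htr4 conditional knockout mice was taken from 4 of the 15 libraries of the study, chosen by their titles: 2 TRAP immunoprecipitates (IP) and 2 inputs of the ventral dentate gyrus (vDG) of conditional knockouts (cKO). All genes of these libraries were considered, and 15126 of 32657 features had enough counts to be tested. Htr4 encodes the serotonin receptor 5-HT4R. The cKO mice carried the Drd3-Cre KI198 driver, Rosa26-fsTRAP and Htr4-Floxed, were 8 to 12 weeks old and, by the study's methods, were bred on C57BL/6J. IP and input shared all of these alleles, so the comparison made here is between tagged ribosomes and whole tissue within the knockout. The 6 WT vDG libraries (3 IP, 3 input; Drd3-Cre KI198 and Rosa26-fsTRAP, intact Htr4, same ages) served to test whether the difference between IP and input depended on genotype, for 1 alternative fit and for the checks of Htr4 and Y-linked counts. Each library came from a pool of animals. The records put 3 mice in an IP and 2 in an input, whereas the methods describe 1 male and 1 female per replicate. The p-values measure the spread between these pools only. KI198 is a bacterial artificial chromosome line that uses Drd3 regulatory sequence. By the records it drives the tag in granule cells (GCs) and hilar mossy cells (MCs), and the study also saw tagged pyramidal cells.

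TRAP (translating ribosome affinity purification) places EGFP on the large-subunit protein L10a in chosen cells, so that an antibody to EGFP recovers ribosomes of those cells with the mRNAs they are translating. GCs are the excitatory principal neurons of the dentate gyrus. They receive cortical input on spiny dendrites and contact hilar and CA3 neurons through mossy fibers. 5-HT4R couples to the stimulatory G protein and raises cAMP, and it is studied in this tissue for its role in responses to antidepressants.

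The libraries held between 22579586 and 26099971 counts on genes. A count was present on 16757 and 17533 features in the IPs and on 19287 and 19675 in the inputs. Y-linked genes set the replicates apart. Ddx3y, Uty, Kdm5d and Eif2s3y each had 0 counts in IP replicate 1 and in input replicate 1. Their counts ran from 151 to 561 in IP and input replicate 2, and from 103 to 700 in the 13 libraries of the series other than these 2. Xist, the X-inactivation RNA, had 807 and 776 counts in IP and input replicate 1 against 224 and 217 in replicate 2. Replicate 1 thus went against the stated pool of both sexes, in IP and input alike, and medians of marker, histone and noncoding RNA lists from replicate 2 alone stand in the closing part. The records name the source of the inputs as cortex in one field and vDG in another, and Prox1, the transcription factor that marks GCs, was at 17434 and 17120 normalized counts in them.

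The targeted gene was not lower by whole-gene counts. Normalized over the 10 vDG libraries together, Htr4 stood at 769 and 686 in the cKO IPs and at 740 and 701 in the cKO inputs. The WT libraries lay between 343 and 472. The methods place the deletion at exon 5 only, so a count over all exons does not check it. Within the cKO, Htr4 had 726 and 647 normalized counts in the IPs against 726 and 683 in the inputs, a log2 fold change of −0.04 ± 0.14 (SE; edgeR quasi-likelihood FDR = 0.875).

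Ribosome-bound RNA differed from input for 27.5% of the genes tested. At an edgeR quasi-likelihood FDR (Benjamini-Hochberg adjusted over all genes) under 0.05, 1790 genes were higher in the IP (11.8%) and 2377 were lower (15.7%). By the study's limits, 1719 were enriched (log2 fold change of at least 0.32, 11.4%) and 1624 depleted (fold change under 0.5, 10.7%), while 65 were enriched at least 2-fold. The median log2 fold change over all genes was −0.03, so the list medians below can be read as they stand. With 2 libraries against 2, an exact permutation test of a single gene cannot give a two-sided p under 0.333, and the FDRs rest on a spread estimated across genes. Scaling by library totals alone moved every log2 fold change down by about 0.17, and the split of calls became 751 higher and 3230 lower. Calls on weak shifts upward therefore depended on the scaling, through a move common to all genes. Counts with library totals alone are given beside most functional lists. Those totals include Rn45s, the ribosomal RNA precursor, which had 2359207 and 2780414 counts in the IPs and 1774850 and 1296833 in the inputs. Its part in the shift was not tested, and it was chosen for mention after its values were seen. Without input replicate 1, 1059 genes were enriched and 835 depleted, and 848 were depleted without input replicate 2. Under library totals alone 716 genes were enriched. In several functional lists the calls also depended on single libraries, and such counts stand beside them.

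GC markers were higher in the IP as a group. Of 17 tested, 12 were higher and 1 was lower, with a median log2 fold change of 0.52. With library totals alone 8 remained higher. Dsp, which encodes the desmosomal linker desmoplakin, had 1776 and 2933 normalized counts in the IPs and 781 and 1095 in the inputs. Both IPs lay above both inputs, with a log2 fold change of 1.33 ± 0.21 (edgeR FDR = 0.00074). Dock10, an exchange factor for small GTPases, stood at 7353 and 8761 against 3604 and 3776 (1.13 ± 0.11, edgeR FDR = 1.6e-05). Calb1, the calcium buffer calbindin of mature GCs, was at 8434 and 8757 in the IPs and 5503 and 5898 in the inputs. Its groups did not overlap, with a log2 fold change of 0.59 ± 0.10 (edgeR FDR = 0.00082). Plk5, C1ql2, Tdo2, Il16, Npnt, Grm2, C1ql3 and Nrgn were also called, at log2 fold changes from 0.36 to 0.88. Prox1 was the least shifted of the 12, at 20517 and 20984 against 17434 and 17120. Its log2 fold change of 0.26 ± 0.09 lay just under the threshold (edgeR FDR = 0.045) and passed it under no setting that left out a library, where the log2 fold change was 0.25 to 0.32. Nrgn lost its call without IP replicate 2 (0.31) or input replicate 2 (0.26).

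Not every gene on the GC list followed. Glis3, a zinc finger transcription factor, had 1472 and 1579 normalized counts in the IPs and 2819 and 2766 in the inputs. It was lower in the IP by a log2 fold change of −0.87 ± 0.11 (edgeR FDR = 0.00011). Rfx3, also a transcription factor, was among the most abundant of the list, at 24061 and 25066 against 23892 and 25861, and did not pass the test (−0.02 ± 0.09, edgeR FDR = 0.91). Lct, which encodes lactase and marks dorsal GCs, was at 1405 and 2114 in the IPs and 743 and 1201 in the inputs (0.86 ± 0.22, edgeR FDR = 0.012). The call was lost without input replicate 1, at 0.56, and in DESeq2, at 0.87. Trhr, the receptor for thyrotropin-releasing hormone and a marker of ventral GCs, was split by replicate rather than by fraction, at 565 and 389 in the IPs and 564 and 364 in the inputs.

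Markers of the other excitatory cells were near or below their input level. Of 10 MC markers, 0 were higher and 1 was lower (4 under library totals alone), with a median of −0.83. Without IP replicate 2 there were 1 higher and 2 lower, and 0 were lower without input replicate 2. Calb2, which encodes the calretinin of ventral MCs, had 1664 and 1378 normalized counts in the IPs and 1937 and 1587 in the inputs. These ranges overlapped, and the log2 fold change was −0.21 ± 0.14 (edgeR FDR = 0.271). Ajap1 and Sv2c, at log2 fold changes of −0.03 and 0.33, were not called either. The single call, Dgkk, a diacylglycerol kinase, rested on 6.87 and 0 against 29.5 and 60.3. MC markers below 150 normalized counts, such as Drd2 and Calcrl, had log2 fold changes of −0.92 and −0.80 and did not pass the test (edgeR FDR = 0.088 and 0.055). CA pyramidal markers had a median of 0.10, with 0 of 14 higher (1 without IP replicate 2) and 1 lower (2 under library totals alone). The single call, Mpped1, a phosphodiesterase, had 74.4 and 57.1 in the IPs and 326 and 280 in the inputs, while Tyro3, a receptor kinase, was at 138 and 117 against 117 and 126.

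**Figure D1:**
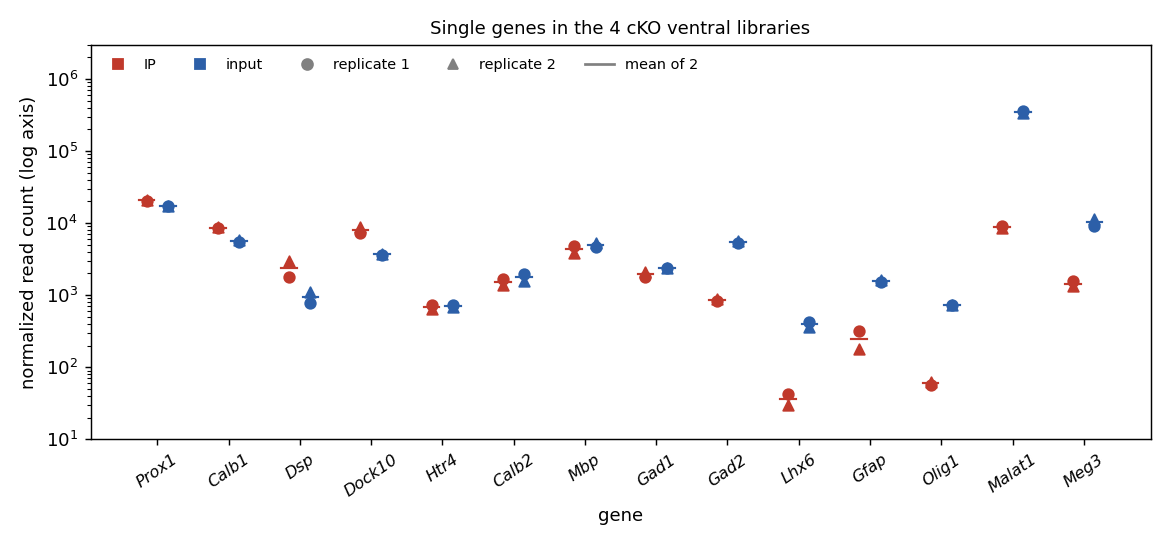
Normalized read counts (log axis) of selected genes in the 4 cKO vDG libraries, with red for IP, blue for input, circles for replicate 1, triangles for replicate 2 and bars for the mean of 2. Calb1, Dsp and Dock10 lie higher in both IPs, Htr4, Calb2 and Mbp overlap or lie close between fractions, and Gad2, Lhx6, Gfap, Olig1, Malat1 and Meg3 lie lower in both IPs.

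Interneuron transcripts were strongly reduced in the IP, with 13 of 16 markers lower, 0 higher and a median of −2.71. The summed level of the list was 6753 and 6535 normalized counts in the IPs and 20138 and 18334 in the inputs. Lhx6, a transcription factor of interneurons born in the medial ganglionic eminence, was at 42.3 and 29.6 in the IPs and 428 and 365 in the inputs. Its log2 fold change was −3.47 ± 0.27 (edgeR FDR = 2.2e-06). Dlx6os1, an RNA from the Dlx5/6 locus, was lower still, at −3.97 ± 0.23. Slc32a1, the vesicular GABA transporter, had 20.6 and 46.9 against 252 and 206 (−2.74 ± 0.36, edgeR FDR = 0.00019).

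The 2 genes for GABA synthesis parted. Gad2, for GAD65, had 843 and 882 normalized counts in the IPs and 5374 and 5670 in the inputs, a log2 fold change of −2.68 ± 0.11 (edgeR FDR = 1.5e-08). Gad1, for GAD67, was at 1783 and 2102 against 2404 and 2368. Its IPs also lay below its inputs, but by only −0.30 ± 0.11 (edgeR FDR = 0.073), and the call depended on the scaling. Reln, the secreted glycoprotein reelin, was at 416 and 351 in the IPs and 394 and 285 in the inputs (0.18 ± 0.20, edgeR FDR = 0.558). Gad1, Reln and Vip were the 3 interneuron markers that did not pass the test.

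Progenitor and immature neuron markers were lower in part, 6 of 13 with 0 higher and a median of −1.41. Only 3 were lower without input replicate 1, and likewise 3 without input replicate 2. Nr2e1, the orphan receptor TLX of neural stem cells, stood at 66.4 and 56.1 in the IPs and 587 and 403 in the inputs (−3.01 ± 0.25, edgeR FDR = 4.7e-06). Dcx, the microtubule protein doublecortin of immature neurons, had 911 and 889 against 1627 and 1549. Both IPs of Dcx lay below both inputs, with a log2 fold change of −0.82 ± 0.12 (edgeR FDR = 0.00037). Neurod1, Dpysl3 and Sox11 ranged from −0.38 to 0.25 and were not called.

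Astrocyte markers were lower in 14 of 15 cases and higher in 0, with a median of −2.67 and a summed level of 31567 and 31176 normalized counts in the IPs against 85199 and 79253 in the inputs. Gfap, the intermediate filament of astrocytes, was at 319 and 179 in the IPs and 1521 and 1643 in the inputs (−2.67 ± 0.21, edgeR FDR = 2.8e-06). The gap junction genes Gjb6 and Gja1 were lower by −3.35 ± 0.26 and −3.07 ± 0.19. Slc1a2, the glutamate transporter GLT-1, kept 22436 and 23253 in the IPs against 55411 and 49356 in the inputs. It was the most abundant gene of the list and also its smallest called change, at −1.20 ± 0.10. Slc4a4, a sodium bicarbonate cotransporter, was at 4509 and 4315 against 5059 and 5139 and was not called (−0.21 ± 0.10, edgeR FDR = 0.125).

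Oligodendrocyte markers were lower in 12 of 13 cases, with a median of −2.64. Olig1, a lineage factor, had 57.2 and 62.2 normalized counts in the IPs and 723 and 731 in the inputs (−3.60 ± 0.19, edgeR FDR = 9.5e-08). Its relative Olig2 had a log2 fold change of −4.04 ± 0.36. Mbp, myelin basic protein, was the exception. It had 4745 and 3869 in the IPs and 4600 and 5377 in the inputs, overlapping ranges with a log2 fold change of −0.21 ± 0.12 (edgeR FDR = 0.217). Opalin, a myelin membrane protein, was at 0 in both IPs against 53.3 and 37.5 in the inputs, at least 13.97-fold lower when the IPs are set at a floor of 3 counts per library.

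Precursor markers were lower in 5 of 8 cases and higher in 1, with a median of −1.95. Gpr17, a receptor of committed oligodendrocyte precursors, was at 73.2 and 84.7 in the IPs and 340 and 340 in the inputs (−2.10 ± 0.23, edgeR FDR = 4.8e-05). Cspg4, the proteoglycan NG2 that both precursors and pericytes carry, went the other way. It had 129 and 182 against 89.4 and 77.6, both IPs above both inputs (0.90 ± 0.29, edgeR FDR = 0.038). It was chosen for mention after its values were seen. The list held 0 higher calls in DESeq2, under library totals alone, and without IP replicate 2 or either input.

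Microglial markers had a median of −3.36, with 11 of 13 lower and 0 higher. Without input replicate 1, 7 were lower. With 5 of them set at their bound the median was −3.07. C1qa, a chain of complement C1q, had 1.14 and 2.04 normalized counts in the IPs and 39 and 15.5 in the inputs, at least 8.40-fold lower, and was not called without input replicate 1. C1qc and Tyrobp, at least 24.6-fold and 14.4-fold lower, were likewise at or under 3 counts in both IPs. The list summed to 208 and 164 in the IPs and 1197 and 854 in the inputs.

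None of 11 endothelial markers was called in either direction, but 1 was higher in the fit with a replicate block. Their median was −0.15. Relative to all genes it was −0.12, and 0.34 without IP replicate 2 and 0.15 without input replicate 1. Without IP replicate 1 and input replicate 2 it was −0.18 and −0.05. Their summed level, 819 and 596 in the IPs and 717 and 553 in the inputs, overlapped between fractions. Flt1, a VEGF receptor, had 106 and 55.1 against 48.5 and 21 (1.21 ± 0.49, edgeR FDR = 0.085), and Kdr, another VEGF receptor, had 36.6 and 34.7 against 37.1 and 45.7 (−0.22 ± 0.46, edgeR FDR = 0.772). Slc2a1, the glucose transporter GLUT1 and the most abundant of the list, was at 458 and 372 against 415 and 335. Cldn5, the tight junction claudin, had too few counts to be tested, 8.01 and 3.06 in the IPs and 0.951 and 5.48 in the inputs. The levels were low, with a median over the tested markers of 1.13 CPM.

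Mural, meningeal and choroid plexus markers were mixed. Of 8 mural markers 2 were lower (1 without input replicate 2 and 3 without IP replicate 1), with a median of −0.80. Rgs5, a pericyte regulator of G protein signaling, had 178 and 201 in the IPs and 802 and 648 in the inputs (−1.93 ± 0.18, edgeR FDR = 1e-05), whereas Pdgfrb, the PDGF receptor of pericytes, was at 60.6 and 57.1 against 65.6 and 69.4 (−0.20 ± 0.36, edgeR FDR = 0.726). Of 7 meningeal markers 3 were lower, among them Igf2, a growth factor of the meninges and choroid plexus, with 14.9 and 32.7 against 521 and 848 (−4.82 ± 0.34, edgeR FDR = 8.9e-07). Ttr, the transthyretin of the choroid plexus, was at 9.15 and 12.2 in the IPs and 117 and 285 in the inputs (−4.21 ± 0.49). Of 5 choroid plexus markers tested 3 were lower. Both fractions came from the same kind of tissue, so these values do not measure how many cells of a type it held or their RNA content.

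**Figure D2:**
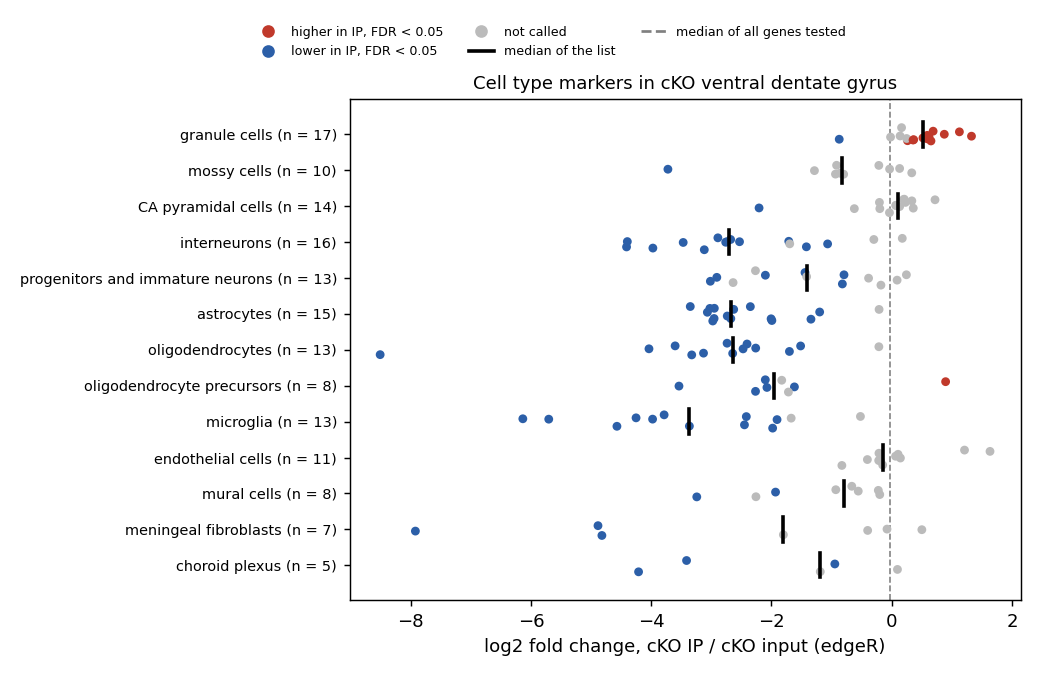
Log2 fold change of IP over input in the cKO vDG for the tested markers of 13 cell types, one point per gene, red where higher and blue where lower at an edgeR FDR under 0.05, grey where not called, with a bar at each median and a dashed line at the median of all genes. GC markers lie to the right, interneuron, astrocyte, oligodendrocyte and microglial markers to the left, and all 11 endothelial markers are grey.

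Among genes of excitability, calcium handling stood out by its count. Of 26 genes for calcium stores, pumps and calmodulin kinases, 14 were higher and 0 lower (1 without IP replicate 2), with a median of 0.38 and, under library totals alone, 11 higher and 1 lower. Ryr2, the ryanodine receptor that releases calcium from the endoplasmic reticulum, had 14140 and 17338 normalized counts in the IPs and 6941 and 7595 in the inputs (1.11 ± 0.11, edgeR FDR = 2.5e-05). Slc8a2, a sodium-calcium exchanger, was at 3253 and 3252 against 1522 and 1897 (0.93 ± 0.12, edgeR FDR = 0.00017). All 4 plasma membrane calcium pumps, Atp2b1 to Atp2b4, were higher, at log2 fold changes from 0.58 to 0.78. Camk2a, the alpha subunit of the synaptic kinase CaMKII, stood at 96686 and 105731 in the IPs and 62396 and 67230 in the inputs (0.64 ± 0.09), while Camk2d, at 804 and 724 against 754 and 917, was not called.

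Voltage-gated channels held calls in both directions in each family. Of 23 calcium channel genes 9 were higher and 3 lower, with a median of 0.25 and, under library totals alone, 6 higher and 3 lower. The shares, 39.1% and 13%, stood beside 11.8% and 15.7% of all genes, so the lower share lay near the background. Relative to all genes, the median went from 0.28 to 0.17 when a trend on length was removed. Cacna1e, the pore of R-type channels, had 17254 and 17700 in the IPs and 9841 and 9024 in the inputs (0.89 ± 0.09, edgeR FDR = 3.6e-05), and the T-type pore Cacna1i had 1210 and 910 against 596 and 599 (0.83 ± 0.15). The 3 lower members were Cacng4, Cacna2d2 and Cacng7. Cacng7 was at 420 and 370 against 1036 and 1087 (−1.43 ± 0.14, edgeR FDR = 2e-05).

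Of 62 potassium channels 8 were higher and 7 lower, with a median of 0.03. The shares, 12.9% and 11.3%, lay near the 11.8% and 15.7% of all genes. Under library totals alone 4 were higher and 15 lower, and higher calls numbered 5 without input replicate 1 and 3 without input replicate 2. Kcnh3, a neuronal channel of the EAG family, had 651 and 505 against 311 and 336 (0.84 ± 0.17, edgeR FDR = 0.0041), and the modulatory subunit Kcng2 had 482 and 486 against 305 and 305 (0.66 ± 0.16), although its call was lost without either input (0.67 in both cases). Kcnd2 and Kcnq5, which carry A-type and M-type currents, were also higher, at 0.60 and 0.58. On the other side, Kcnj10, the inward rectifier of glia, was at 217 and 186 in the IPs and 955 and 931 in the inputs (−2.23 ± 0.16, edgeR FDR = 9.9e-07). Its partner subunit Kcnj16 fell by 2.28 ± 0.23. Of 10 sodium channel genes 2 were higher, Scn8a by 0.71 ± 0.10 and Scn2b by 0.43 ± 0.10, and Scn9a was lower, with a list median of 0.00. The shares, 20% and 10%, rest on 10 genes. There was 1 higher under library totals alone, and 0 lower without input replicate 2.

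Receptor families likewise held calls in both directions. Of 24 glutamate receptor genes 8 were higher and 4 lower, with a median of 0.21 and, under library totals alone, 4 higher and 4 lower. The shares, 33.3% and 16.7%, stood beside 11.8% and 15.7% of all genes, so the lower share lay near the background. The lower calls were 2 without input replicate 1. Grin1, the obligatory subunit of NMDA receptors, had 3284 and 3485 normalized counts in the IPs and 1693 and 1704 in the inputs (0.99 ± 0.10, edgeR FDR = 2.9e-05). Grin2b, which sets NMDA receptor kinetics, was at 8743 and 7851 against 5632 and 5164 (0.62 ± 0.10). The lower members were Grin2c, Grik1, Grm3 and Gria4, of which Grm3, a metabotropic receptor also found in astrocytes, had 164 and 138 against 454 and 411 (−1.52 ± 0.20, edgeR FDR = 0.00019). Of 14 GABA receptor genes 14.3% were higher and 21.4% lower, near the 11.8% and 15.7% of all genes. Higher were the GABA-B subunits Gabbr2 and Gabbr1 (1 of them under library totals alone or without input replicate 2), by 0.56 ± 0.10 and 0.37 ± 0.10. Gabbr1 was not called without IP replicate 1 (0.34) or input replicate 2 (0.31), nor Gria4 without input replicate 1 (−0.60). Lower were 3 GABA-A subunits, Gabra3, Gabrg1 and Gabrg3, with Gabrg1 at 43.5 and 82.7 against 195 and 196 (−1.62 ± 0.32, edgeR FDR = 0.003).

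Synaptic machinery was higher more often than lower. Of 22 postsynaptic scaffold genes 9 were higher and 1 lower, with a median of 0.24, although under library totals alone the counts were 3 and 3. Cnksr2, a scaffold that binds PSD-95, had 20267 and 22874 against 12014 and 11480 (0.88 ± 0.10, edgeR FDR = 5.5e-05), and Shank2 had 4795 and 4876 against 3135 and 3356 (0.58 ± 0.10). Homer2 alone was lower, at 823 and 934 against 1904 and 2130 (−1.20 ± 0.12). Of 54 genes for vesicle release 21 were higher and 7 lower, with a median of 0.21 and, under library totals alone, 16 higher and 9 lower. The lower calls numbered 3 without input replicate 1 and 4 without input replicate 2. Unc13a, which primes vesicles for release, was at 4864 and 6634 in the IPs and 2864 and 3442 in the inputs (0.87 ± 0.14, edgeR FDR = 0.00094). Slc17a7, the vesicular glutamate transporter VGLUT1, was higher by 0.54 ± 0.10. Rab3b and Syt6 were lower by −1.16 ± 0.13 and −2.36 ± 0.26, and Cplx3, a complexin, was at or under 3 counts in both IPs and at least 6.19-fold lower.

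Motor genes contained the largest increase among the named genes. Dync1h1 (chromosome 12, 110601452 to 110666945, mm10), the heavy chain of cytoplasmic dynein, had 18470 and 23764 normalized counts in the IPs and 4188 and 3970 in the inputs. Its log2 fold change of 2.37 ± 0.12 (edgeR FDR = 8e-08) was the highest of all genes that met the rule for naming. In its list of 44 kinesins and dyneins 12 were higher and 3 lower, with a median of 0.05, and under library totals alone 5 were higher and 6 lower. Relative to all genes the median was 0.077, and −0.026 and 0.21 without input replicate 1 and 2. Without IP replicate 1 and 2 it was 0.16 and 0.014. Lower calls ranged from 1, without either input, to 9, without IP replicate 2. The axonal kinesins Kif21a and Kif1a were higher by 0.80 ± 0.11 and 0.77 ± 0.09, and Kif1c was lower, at 262 and 329 against 740 and 726 (−1.31 ± 0.16). Of 36 cadherins and protocadherins 6 were higher (5 under library totals alone) and 8 lower (10 under library totals alone, 3 without input replicate 1 and 5 without input replicate 2). The shares, 16.7% and 22.2%, lay near those of all genes. Celsr2 and Pcdh19, the latter a protocadherin linked to epilepsy, were higher by 0.91 ± 0.10 and 0.81 ± 0.10. Cdh6, a classical cadherin, was at 0 in both IPs against 38 and 34.7 in the inputs, at least 11.2-fold lower.

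Of 10 serotonin receptor genes, Htr4 included, 0 were higher and 2 lower, with a median of −0.08. The lower share of 20% lay near the 15.7% of all genes, and 1 was lower without IP replicate 1 or without either input. Htr3a, the ion channel receptor that many interneurons carry, had 36.6 and 28.6 in the IPs and 173 and 116 in the inputs (−2.15 ± 0.36, edgeR FDR = 0.001). Htr7, which like 5-HT4R couples to the stimulatory G protein, had 30.9 and 53.1 against 99.9 and 96.8 (−1.22 ± 0.38, edgeR FDR = 0.03). Htr1a, the inhibitory receptor of GCs, was at 1585 and 1535 against 1637 and 1342 (0.07 ± 0.13, edgeR FDR = 0.739).

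The cAMP signaling list took in phosphodiesterases whatever their substrate. It was divided, with 15 of 62 genes higher (24.2%), 13 lower (21%) and a median of −0.02. Under library totals alone 7 were higher and 15 lower, and lower calls fell to 5 without input replicate 1 and 6 without input replicate 2. Gnas, the stimulatory G protein alpha subunit, was at 52614 and 56571 in the IPs and 42583 and 41978 in the inputs (0.37 ± 0.09, edgeR FDR = 0.0096). The catalytic kinase subunit Prkaca rose from 5828 and 5887 to 8496 and 8599 (0.55 ± 0.09). Of the phosphodiesterases, Pde1b and Pde2a were higher by 0.65 ± 0.10 and 0.55 ± 0.10. Pde5a and Pde3b were lower, the former at 80.1 and 75.5 against 202 and 197 (−1.36 ± 0.26, edgeR FDR = 0.0025). The call on Pde3b was lost without input replicate 1 (−0.92) or 2 (−1.03). Creb1, the cAMP response factor, was lower by −0.30 ± 0.10 (edgeR FDR = 0.039). Immediate early genes gave 3 higher (0 under library totals alone or without input replicate 1, 6 without IP replicate 1) and 1 lower (0 without either input) of 22, with 2 higher and 3 lower without IP replicate 2. Their share of higher calls was close to that of all genes, and their median was 0.17. Relative to all genes it was 0.20, and −0.0067 without IP replicate 2. Fos, at 18.3 and 68.4 in the IPs and 36.1 and 42 in the inputs, varied more between IPs than between fractions.

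Few messages of the ribosome itself passed the test. Of 77 cytosolic ribosomal protein genes 0 were higher and 14 lower, a share of 18.2% beside 15.7% of all genes, with a median of −0.08. Relative to all genes the median was −0.051, and 0.074 and −0.17 without input replicate 1 and 2. Without IP replicate 1 and 2 it was −0.056 and −0.0056. Library totals alone gave 23 lower. There were 7 lower and 2 higher without IP replicate 2, and 4 of each without input replicate 1. Rplp1, an acidic stalk protein, had 2088 and 2019 normalized counts in the IPs and 3495 and 3084 in the inputs (−0.68 ± 0.11, edgeR FDR = 0.0007). Rplp0, which anchors the stalk, was at 1308 and 1073 against 1821 and 1719 (−0.57 ± 0.13), and neither passed the threshold when all 10 vDG libraries were fitted together, at −0.63 for Rplp1 and −0.52 for Rplp0. Rpl10a, whose tagged product defines the IP, was at 3686 and 3813 in the IPs and 4353 and 3986 in the inputs (−0.15 ± 0.10, edgeR FDR = 0.281).

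Other parts of the translation apparatus were mixed. Of 63 initiation and elongation factors 11 were higher (17.5%) and 4 lower (6.35%), with a median of 0.09. With library totals alone 5 were higher and 11 lower, and the median was −0.08. Higher calls numbered 6 without IP replicate 2 or input replicate 1, and 1 was lower without input replicate 1. Eif4g1, the scaffold of the cap-binding complex, was at 3057 and 3427 against 1678 and 1735 (0.93 ± 0.11, edgeR FDR = 7.6e-05), and Eif4g3 was higher by 0.84 ± 0.10. Eef1g and Eif4ebp2, an elongation factor subunit and a repressor of cap binding, were lower by −0.62 ± 0.10 and −0.54 ± 0.15, the latter not called without IP replicate 2 (−0.36) or input replicate 1 (−0.41). Of 23 cytosolic aminoacyl tRNA synthetases 8 were higher and 0 lower, with a median of 0.29 and 3 higher under library totals alone. The same count, 3, was found without either input, and 4 without IP replicate 2. Eprs, which charges glutamate and proline tRNAs, had 2514 and 2781 against 1553 and 1667 (0.72 ± 0.11, edgeR FDR = 0.00059).

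Energy and protein-turnover lists had medians slightly above that of all genes. Of 81 nuclear-encoded genes of oxidative phosphorylation 16 were higher and 3 lower (median 0.22). The corresponding counts were 8 and 1 of 76 mitochondrial ribosomal proteins (0.18), 9 and 1 of 19 vacuolar ATPase subunits (0.29), 7 and 0 of 46 proteasome subunits (0.16), 19 and 3 of 72 chaperones (0.22) and 16 and 5 of 79 ubiquitin conjugases and deubiquitinases (0.20). Beside 11.8% of all genes, the higher shares were 19.8, 10.5, 47.4, 15.2, 26.4 and 20.3%, so that mitochondrial ribosomal proteins and the proteasome lay near the background. The lists had median levels of 64, 24, 113, 68, 71 and 59 CPM, beside 14.7 CPM over all genes. Protein-coding genes between 20 and 100 CPM were higher in 11.1 to 24.3%, by length group. Only the vacuolar ATPase and chaperone shares lay above that range. With library totals alone as the scaling, only 2, 0, 1, 1, 7 and 7 of these were higher and 3, 1, 1, 0, 3 and 7 lower. The excess of higher over lower calls thus depended in most of these lists on how the fractions were set to a common level. Relative to all genes, the list medians were 0.25, 0.21, 0.31, 0.19, 0.25 and 0.23 under either scaling. Without input replicate 1, 9 chaperones, 8 ubiquitin genes, 5 mitochondrial ribosomal proteins and 4 proteasome subunits were higher. Without input replicate 2, the higher calls were 6 for oxidative phosphorylation, 1 for mitochondrial ribosomal proteins, 4 for the vacuolar ATPase and 1 for the proteasome, which had 4 without IP replicate 2. Lower calls in oxidative phosphorylation and in mitochondrial ribosomal proteins were 0 without input replicate 1, the latter were 2 without IP replicate 1, and those in the ubiquitin list were 1 without either input, 2 without IP replicate 1 and 3 without IP replicate 2. Ndufc1, a complex I subunit, had 2530 and 2330 in the IPs and 1690 and 1207 in the inputs (0.75 ± 0.15, edgeR FDR = 0.0028). Hspa2, a chaperone of the HSP70 family, was at 2562 and 2735 against 1303 and 1683 (0.83 ± 0.13). Against this direction, Cox6a2, a tissue-restricted subunit of complex IV, was at 0 in both IPs and 41.9 and 16.4 in the inputs, at least 8.98-fold lower, and Atp6v0e was lower by −1.81 ± 0.22 (edgeR FDR = 0.0001).

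Among RNA processing genes, Prpf8 ranked with the 10 highest of all genes that met the rule for naming. Prpf8, the core of the spliceosome, had 10673 and 14237 normalized counts in the IPs and 3583 and 3918 in the inputs (1.73 ± 0.13, edgeR FDR = 1.8e-06), and its partner helicase Snrnp200 was higher by 1.01 ± 0.12. In all, 16 of 73 hnRNP, SR and spliceosome genes were higher and 3 lower (median 0.16), as were 15 and 2 of 50 RNA helicases (0.29). The shares were 21.9 and 4.11% for the former and 30 and 4% for the latter, beside 11.8 and 15.7% of all genes. Protein-coding genes between 20 and 100 CPM were higher in 11.1 to 24.3%, by length group, and the 2 lists had median levels of 52.8 and 31 CPM. With library totals alone, 5 of the former were higher and 7 lower, and 7 of the latter were higher and 3 lower. Without input replicate 1 the higher calls were 9 and 5, and without IP replicate 2, 9 of the former were higher and 6 lower and 4 of the latter were lower, against 1 of them without IP replicate 1 or input replicate 2. Of 90 chromatin regulators 33 were higher (36.7%) and 12 lower (13.3%), with a median of 0.22, but 15 were higher and 14 lower under library totals alone. Without input replicate 1, 6 were lower. Atrx, a remodeler encoded on the X chromosome, was at 15221 and 18837 against 7495 and 7484 (1.19 ± 0.11, edgeR FDR = 1.2e-05).

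Among the chromatin regulators, enzymes that add or oxidize DNA methylation went both ways. Dnmt1, the maintenance methyltransferase, was higher, at 1182 and 1317 against 567 and 625 (1.07 ± 0.13, edgeR FDR = 0.00013). All 3 Tet dioxygenases, which oxidize methylcytosine, were lower. Tet1 had 672 and 727 in the IPs and 1627 and 1412 in the inputs (−1.12 ± 0.13, edgeR FDR = 7.7e-05), Tet2 had 714 and 872 against 1784 and 1558 (−1.07 ± 0.14), and Tet3 had 1661 and 1733 against 2411 and 2381 (−0.50 ± 0.11). The de novo methyltransferase Dnmt3a was also lower, by −0.48 ± 0.11 (edgeR FDR = 0.0062). Tet3 and Dnmt3a were chosen for mention after their values were seen. The large family of Zfp genes gave 21 higher and 23 lower of 340 (median 0.01), below the share of all genes in both directions. Under library totals alone 5 were higher and 51 lower, and there were 10 and 11 without input replicate 1, 10 and 7 without input replicate 2, and 38 lower without IP replicate 2.

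**Figure D3:**
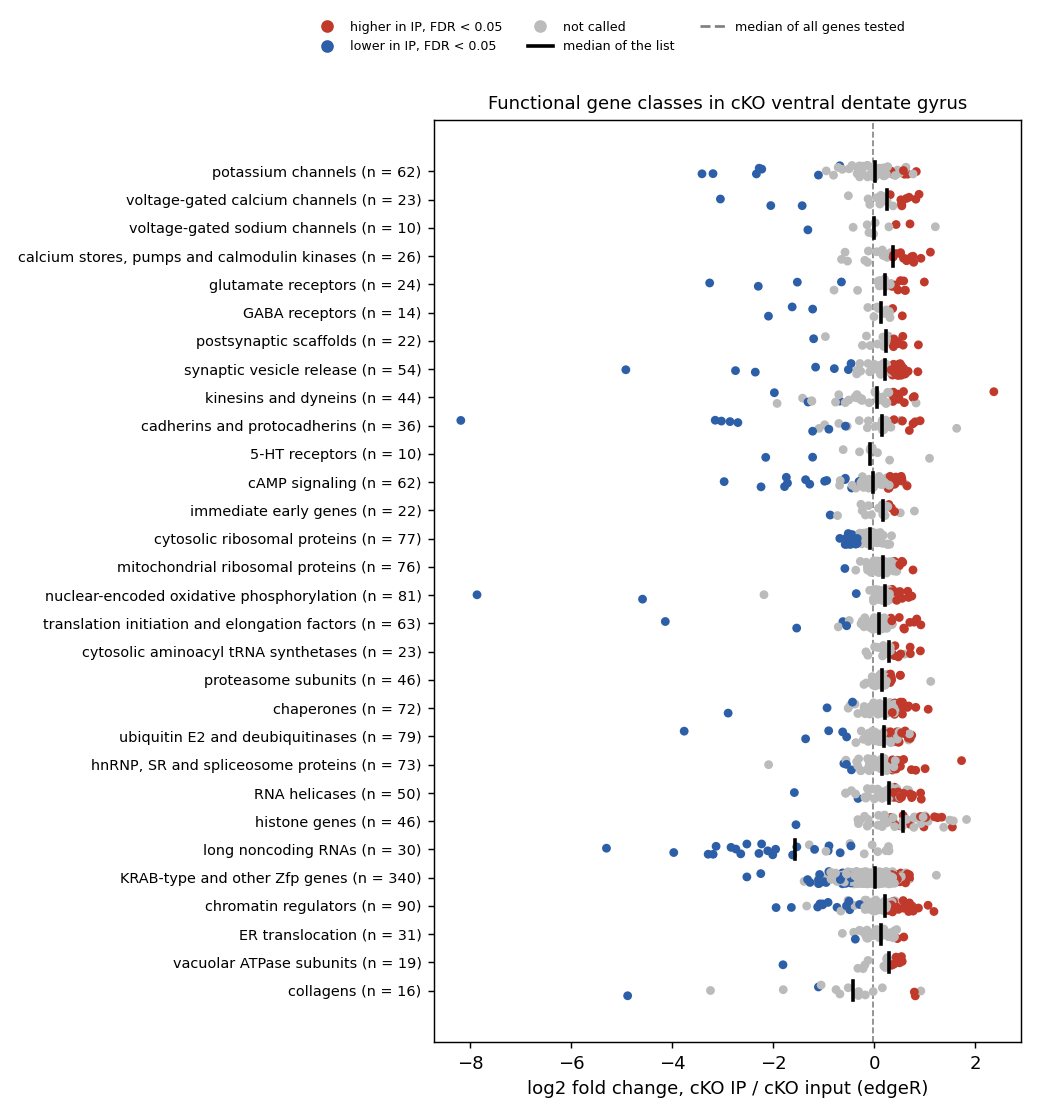
Log2 fold change of IP over input in the cKO vDG for the tested members of the functional gene lists, one point per gene, coloured as for the cell type markers, with a bar at each median and a dashed line at the median of all genes. Most medians lie between −0.1 and 0.4, with histone genes at 0.57 and long noncoding RNAs at −1.57.

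Histone genes had a median of 0.57, close to that of GC markers, with 13 of 46 higher (7 under library totals alone) and 1 lower. Without input replicate 1 or 2 the higher calls were 7 and 5, and 3 were lower without IP replicate 1. Messages of replication-dependent histones end, without a poly(A) tail, just after a conserved stem-loop that binds SLBP, whereas variant histones such as H3f3a carry ordinary tails. The letters GGCNC, TTTT and NAGNGCC in direct succession (N is any base, sense strand only) are a pattern of that stem-loop and were searched in GENCODE M21 transcripts. They occurred in 25 of 13642 tested genes with a transcript (0.183%), of which 23 were on the histone list. The 5 sites below belong to genes called higher, with the 16 matched letters in capitals and 5 flanking bases on each side.
Hist1h4d: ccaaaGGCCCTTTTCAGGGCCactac
H2afx: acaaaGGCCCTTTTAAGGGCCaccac
Hist3h2ba: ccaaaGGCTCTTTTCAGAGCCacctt
Hist2h4: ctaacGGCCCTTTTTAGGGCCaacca
Hist1h3e: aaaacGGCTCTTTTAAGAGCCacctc
The H4 genes shown and H2afx share CCC and GGG in the arms of the stem, and the H2B and H3 genes shown have CTC and GAG. The annotated transcripts ran on past these sites, by 770 bases in Hist1h4d, 822 in H2afx, 169 in Hist3h2ba, 1257 in Hist2h4 and 369 in Hist1h3e.

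Histones with the loop letters were higher in 9 of 23 cases and lower in 0, with 21 of 23 log2 fold changes above 0 and a median of 0.97. Those without a match were higher in 4 of 23 and lower in 1, with a median of 0.25. The letters did not split the genes by class name, since 14 of those without a match were Hist-named (0 higher, 1 lower, median 0.24) and 9 were variants (4 higher), while H2afx held them. The difference between the groups was not tested. Hist1h4d (chromosome 13, 23581598 to 23582735, mm10) had 3747 and 3532 normalized counts in the IPs and 1885 and 990 in the inputs (1.34 ± 0.21, edgeR FDR = 0.00075). Both IPs lay above both inputs, although the inputs differed widely from each other. H2afx, the variant phosphorylated at DNA breaks, was at 2877 and 2262 against 1786 and 1363 (0.71 ± 0.15, edgeR FDR = 0.0043), and Hist2h4 at 219 and 211 against 135 and 76.7 (1.02 ± 0.29, edgeR FDR = 0.021). Without input replicate 2, Hist2h4 was at 0.67 and not called.

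The 4 called without a match were H3f3a, H2afz, H3f3b and H1f0, at log2 fold changes of 0.51, 0.41, 0.38 and 0.33. H3f3a was at 4294 and 4610 against 3172 and 3064. Hist2h2be, an H2B gene in which the letters were not found, was the single lower member, at 253 and 266 in the IPs and 775 and 745 in the inputs (−1.55 ± 0.15, edgeR FDR = 2e-05). Histone genes are near-identical within a class, and reads that aligned to more than 1 place were set aside from genes (10.7 to 13.4% of the reads tallied), so the value of any one is uncertain.

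**Figure D4:**
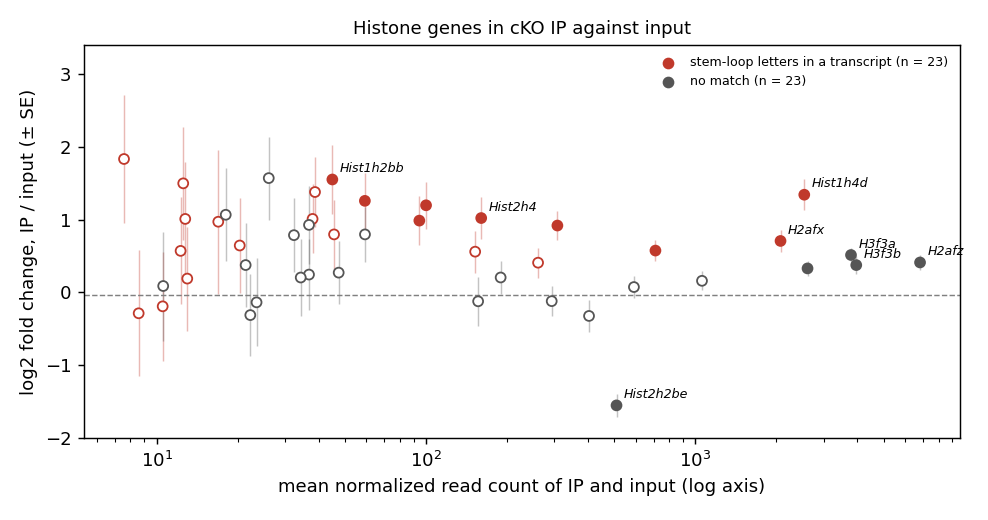
Log2 fold change of IP over input (± SE) for the 46 tested histone genes against their mean normalized read count (log axis), red where a transcript holds the stem-loop letters and dark grey where none does, filled where called at an edgeR FDR under 0.05. Of the red points 9 are filled and all 9 lie above 0, while Hist2h2be is the only filled point below 0.

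Long noncoding RNAs were depleted, with 21 of 30 lower, 0 higher (1 without IP replicate 2) and a median of −1.57. Malat1, an RNA of nuclear speckles, fell from 355370 and 342620 normalized counts in the inputs to 9100 and 8569 in the IPs (−5.30 ± 0.10, edgeR FDR = 1.8e-11). Meg3, an imprinted RNA, was at 1579 and 1324 against 9259 and 11458 (−2.84 ± 0.13), and Miat at 335 and 328 against 2565 and 3244 (−3.13 ± 0.14). Xist followed the replicate and not the fraction, with 923 and 229 in the IPs and 738 and 198 in the inputs (0.29 ± 0.55, edgeR FDR = 0.738). Gas5, whose exons are spliced to a short-lived RNA that ribosomes engage, was lower by only −0.89 ± 0.12. By GENCODE type, 67 of 197 lincRNAs and 42 of 157 antisense RNAs were lower and 0 of either were higher. Protein-coding genes were lower in 13.4% and higher in 13.3% of 13255. The libraries are not described as stranded, so reads of an antisense RNA and of the gene opposite it cannot be told apart.

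Several of the deepest reductions carried no gene name. Of the 10 lowest genes by the naming rule, 6 were features named by a cDNA accession. AK140265 had 6477 and 4304 normalized counts in the IPs and 739907 and 300591 in the inputs (−6.59 ± 0.38, edgeR FDR = 1.6e-07), so that this feature was among the most counted in the inputs and differed more than 2-fold between them. AK163440, AK018753, DQ539915, X57780 and AK142750 lay between −6.13 and −5.60. Features with names of this form took 0.818 and 0.785% of counts in the IPs and 4.92 and 2.73% in the inputs. The named genes among the 10 were Malat1, Igf2, the glial protease inhibitor Timp4 (10.3 and 18.4 against 485 and 430, −4.97 ± 0.30) and Gjc3, a gap junction gene of myelinating glia (16 and 27.6 against 662 and 613, −4.85 ± 0.26).

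At the other end, the 10 highest genes had long messages with 1 exception. In order these were Dync1h1, Ubr3, Prpf8, Dnah5, Tenm2, Hist1h4d, Dsp, Smc1a, Otof and Srrm2, with log2 fold changes from 2.37 to 1.24. Ubr3, an E3 ubiquitin ligase, stood at 12013 and 13175 in the IPs and 3400 and 3639 in the inputs (1.84 ± 0.10, edgeR FDR = 1.2e-07). Tenm2, the synaptic adhesion protein teneurin-2, was at 11594 and 9125 against 4427 and 3747 (1.34 ± 0.13), and Srrm2, a scaffold of nuclear speckles, at 26340 and 31893 against 13029 and 11675 (1.24 ± 0.11). Their summed exons measured from 5769 bases in Smc1a, a cohesin subunit, to 15658 in Dync1h1, and 1138 in Hist1h4d.

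The share of protein-coding genes that were higher increased from 1 to 2 kb of exon upward. It was 8.96% of 212 genes under 1 kb, 7.02% of 1267 at 1 to 2 kb, 9.2% of 3925 at 2 to 4 kb, 13.2% of 5275 at 4 to 8 kb, 19.7% of 1746 at 8 to 12 kb and 30.5% of 830 above 12 kb. Lower genes changed less, from 12.3 to 15.3% between the shortest and longest group. The medians moved little, from 0.09 under 1 kb through 0.00 at 4 to 8 kb to 0.14 above 12 kb. Longer genes also had more counts, with a median level of 5.98 CPM in the shortest and 72.5 CPM in the longest group. Among genes between 20 and 100 CPM, 11.1% of 54 were higher under 1 kb and 24.3% of 313 above 12 kb, and lower genes increased alongside, from 5.56 to 14.7%. The median of this subset was 0.17 in the shortest and 0.10 in the longest group. With a smooth trend on length removed, the GC, interneuron, glial and histone medians moved by less than the spread between replicates. That of the long noncoding RNAs, relative to all genes, went from −1.55 to −1.80. Those of calcium channels (0.28 to 0.17), calcium stores (0.41 to 0.33), glutamate receptors (0.24 to 0.18), scaffolds (0.27 to 0.24), translation factors (0.12 to 0.097), ubiquitin genes (0.23 to 0.16), chromatin regulators (0.25 to 0.19) and Zfp genes (0.036 to 0.012) also moved beyond it.

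**Figure D5:**
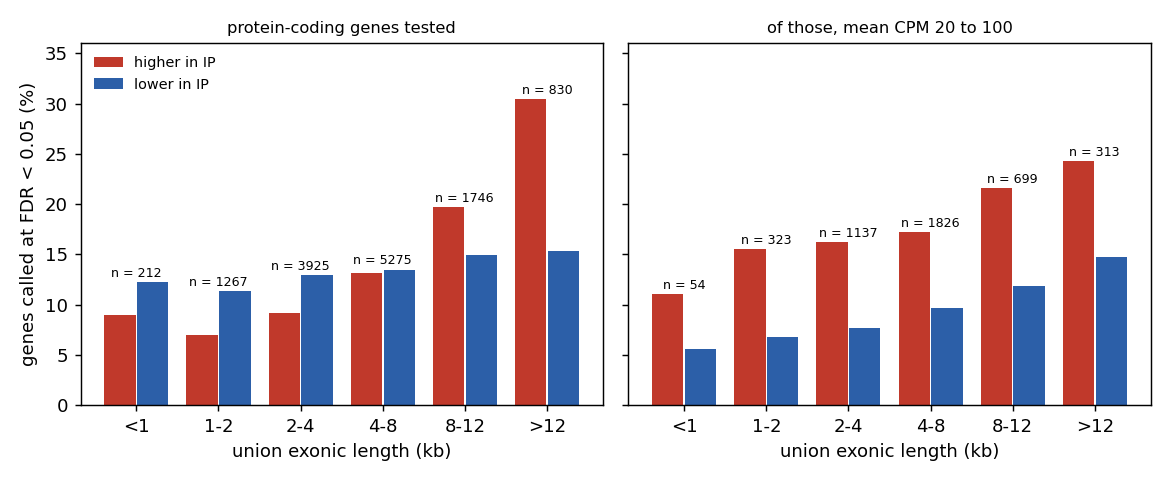
Share of protein-coding genes called higher (red) or lower (blue) in the cKO IP at an edgeR FDR under 0.05, by summed exonic length in kb, for all tested genes on the left and for genes with a mean of 20 to 100 CPM on the right, with the number of genes above the bars. On the left the red bars go from 8.96% in the shortest to 30.5% in the longest group, and on the right both colours increase with length.

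The most abundant ribosome-bound messages, taken per kb of exon, were common to both fractions. The leading 10 in the IP included Calm2, Snap25, Ywhaz, Ywhae, Arf3, Nrgn, Ctxn1, Vsnl1 and Actb, and of all 10, 9 were also among the 10 most abundant in the input. Calm2, which encodes calmodulin, led with 149006 normalized counts per kb in the IP and 103592 in the input. Its gene count was 219293 and 217891 in the IPs and 150012 and 153926 in the inputs (0.52 ± 0.08, edgeR FDR = 0.00082). Snap25, a SNARE of the presynaptic membrane, was higher by 0.36 ± 0.10 but not called without IP replicate 2 (0.28) or input replicate 1 (0.24), and Arf3, a GTPase of vesicle traffic, was level at −0.02 ± 0.10.

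The difference between IP and input was then tested against genotype. None of 16093 genes passed an edgeR FDR of 0.05 for the interaction (0%), where 497 had an unadjusted p under 0.05, and DESeq2 also called 0, with 480. In counts simulated for 15587 genes with the libraries' own spread, interactions were placed in a random subset that left out low-count genes. Of these, 46% of interactions of 1 on the log2 scale and 85% of those of 2 were recovered. Smaller ones were not simulated. Fitted by themselves, the WT libraries gave medians of 0.28 for GC markers (0.52 in the cKO), −0.33 for MC markers (−0.83), −2.47 for interneurons (−2.71), −2.69 for astrocytes (−2.67), −2.89 for oligodendrocytes (−2.64) and 0.42 for histone genes (0.57). Dync1h1 was at 1.61 in WT and 2.37 in the cKO, and Dsp at 0.71 and 1.33. The genotypes were scaled separately for these values, and the differences between list medians were not tested.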

How the data were processed

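RNA-seq was performed on TRAP IP and input RNA amplified with NuGEN Ovation RNA-Seq System V2 (TruSeq libraries). Per the submitters' processing notes, reads were aligned to mm10 with STAR 2.4.2a, handled with SAMtools 0.1.19-444 and counted with HTSeq. The deposited values are whole-number counts per gene, which the authors did not normalize; rows without a gene were dropped here. No-feature reads were 12.5 to 12.9% in the IPs and 15.9 to 16.3% in the inputs, and ambiguous reads 2.50 to 2.54% and 6.16 to 8.30%. From the comparison tables only identifiers, positions and the percent GC that the authors deposited were read; their fold changes, p-values and normalized counts were not used.

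The 2 cKO IPs and 2 cKO inputs were scaled by TMM, kept by filterByExpr and fitted with edgeR 4.0.16 (two-sided quasi-likelihood F-test, Benjamini-Hochberg FDR, R 4.3.3), and the genotype by fraction interaction over 10 libraries likewise. Normalized counts are counts scaled to the mean effective library size. Standard errors came from the F statistics. Exonic lengths came from GENCODE M21 and covered 83.8% of features with a count. DESeq2 1.42.0 and other settings were alternatives. On simulated counts for 14744 genes of the cKO comparison, changes were likewise placed in a random subset without low-count genes. There, 20% of log2 changes of 0.5 and 69% of those of 1 were recovered. Floors cover counting error only, whereas the standard errors include the spread between libraries.

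Genes were named if called, at 5 CPM or more on average and without overlap between groups: the 10 largest in each direction and, per list, the 2 largest in each direction, besides markers and the 10 most abundant genes per kb. Any other gene given with values was picked with its values in view. All lists were chosen with earlier results of these data known. The list of mitochondrially encoded genes matched no feature. Of 31 ER translocation genes (median 0.13) 2 were higher and 1 lower, 6.45 and 3.23% beside 11.8 and 15.7% of all genes. The counts were 1 and 4 under library totals alone, 3 and 0 without IP replicate 1 or input replicate 1, 5 and 2 without IP replicate 2, and 1 and 0 without input replicate 2. Of 16 collagens (−0.41) 2 were higher and 2 lower, with 0 and 3 under library totals alone, 0 and 0 without either input, 2 and 3 without IP replicate 1, and 2 and 4 without IP replicate 2. Some genes are not reported here.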

Additional observations from a re-analysis of the deposited data

How the results depend on the processing

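Depth limited the low genes, and 2 libraries per fraction limited the precision of every fold change. Among named genes, 1658 comparisons with an alternative kept the side of the threshold, 137 lost the call and 18 gained it. No gene called in either fit changed direction. A change of sign in a gene called in neither fit was counted as kept. Against 1719 enriched genes, library totals alone gave 716, library totals without features named by a cDNA accession 584, and a fold of at least 2 gave 65. Leaving out 1 library gave 1059 to 1946. Against 1624 depleted genes, 10 counts in every library gave 936 and leaving out 1 library 835 to 1994. The interaction gave 0 calls in every setting run. DESeq2, its size factors and the fit over 10 libraries changed none of these totals by over 1.5 times.

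The fit with a replicate block gave 2152 enriched and 1707 depleted genes, 2736 higher against 1790 and 2978 lower against 2377, and 0 interactions. In it 36 oxidative phosphorylation genes were higher, beside 16 without the block. The counts were 17 beside 8 for mitochondrial ribosomal proteins, 31 beside 19 for chaperones and 33 beside 16 for ubiquitin genes. Lower calls in these lists were 3, 1, 3 and 7 with the block and 3, 1, 3 and 5 without. Same-numbered cKO libraries deviated together (r = 0.306, where 2 pairs give 1 independent value), but WT pairs gave 0.470, −0.170 and −0.332. Across numbers, WT IP replicate 2 with input replicate 3 gave 0.278 and IP replicate 3 with input replicate 2 gave 0.619. By the methods, input RNA came from part of the lysate used for IP, but no source used here says which input belongs to which IP, so the numbers were not taken as pairs. The absence of Y-linked counts in both cKO libraries numbered 1 is a hint from the data that these belong together.

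The list medians that follow are log2 fold changes less the median of all genes. Without a count filter they were 0.68 (granule cells, 0.55 with it), −0.50 (mossy, −0.80), 0.26 (CA pyramidal, 0.13), −2.58 (interneurons, −2.68), −2.48 (oligodendrocytes, −2.62), −3.65 (choroid plexus, −1.16) and −1.37 (long noncoding RNAs, −1.55). With 10 counts in every library, which tests fewer genes, they were −0.62 (progenitors, −1.39), −2.11 (precursors, −1.92), −1.97 (microglia, −3.34), −0.27 (meningeal, −1.77), and −0.015 for Zfp genes, which reversed. With replicate 2 of IP and input only, chosen after seeing the data because replicate 1 lacked Y-linked counts, they were −0.56 (mossy), 0.24 (CA pyramidal), −2.46 (interneurons), −1.10 (progenitors), −2.63 (microglia) and 0.18 (endothelial), and, moving less, 0.48 (granule cells), −2.81 (astrocytes), −2.68 (oligodendrocytes), −1.93 (precursors), −0.66 (mural), −1.87 (meningeal), −0.93 (choroid plexus), 0.64 (histone genes) and −1.52 (long noncoding RNAs). No single gene was refitted on replicate 2 alone. Removal of a length trend, also added after seeing the data, gave −1.80 for long noncoding RNAs. Leaving out 1 library gave −0.86 to −0.62 (mossy), 0.11 to 0.26 (CA pyramidal), −2.71 to −2.45 (interneurons), −1.49 to −1.11 (progenitors), −2.77 to −2.25 (astrocytes), −2.77 to −2.54 (oligodendrocytes), −0.18 to 0.34 (endothelial), −1.24 to −0.70 (mural), −2.34 to −0.77 (meningeal), −2.08 to −0.75 (choroid plexus), 0.44 to 0.60 (histone genes) and −0.0067 to 0.34 (immediate early genes, reversed without IP replicate 2). The causes were not tested. Scaling by library totals without cDNA-named features was likewise chosen after seeing the data.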
